A study of Mus musculus with 6 samples.

Results

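DMSO, a solvent commonly used as the vehicle for drugs such as latrunculin A, was given to bone marrow-derived macrophages (BMDMs) with and without IL-4, and chromatin accessibility was compared with that of cells that received no DMSO. The sites compared were the autosomal sites of the deposited table with a mean signal of at least 3.2 over the 6 libraries, where signal is the CPM (reads in a site relative to the depth of the library) after scaling between libraries. This kept 33476 of 534067 autosomal sites and of 578591 sites in all. The sites just inside that limit behaved like those just outside it. Of 2747 sites with a mean of 3.2 to 3.4, 21.5% differed by 1.5-fold or more between DMSO and Untreated, against 20.4% of 3320 sites with a mean of 3.0 to 3.2. In the pair with IL-4 these shares were 14.5% and 14.9%.

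All libraries came from wild-type C57BL/6 BMDMs (C57BL/6J in the growth protocol), cells grown from marrow in medium conditioned by L929 cells. They were differentiated on non-tissue culture dishes. For the assayed cells the sample titles read Petri, whereas the study's text names tissue culture plates, and the sources used here do not settle which was used. The Untreated library received no stimulus, the IL-4 library received IL-4 at 20 ng/ml for 24 hours, the DMSO library received DMSO, and the DMSO + IL-4 library received both. The DMSO concentration and exposure time are not given in the sources used here. A separate pair, LatA + IL-4 (latrunculin A at 1 μM, which blocks actin polymerization) and MCSF + IL-4 (the macrophage growth factor CSF1 at 100 ng/ml), entered the mean signal and served as a comparison that shares no library with the DMSO pairs. Which solvent the latrunculin A was given in is not stated in the labels, so that library is not counted here as free of DMSO. Each group had 1 library, so every ratio compares 2 libraries, and a difference between 2 conditions cannot be told apart from a difference between 2 preparations. How many mice the marrow came from is not given in the sources used here.

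In ATAC-seq the Tn5 transposase inserts sequencing adapters where DNA is not covered by nucleosomes, so promoters and enhancers in use collect many reads. IL-4 signals through its receptor to the transcription factor STAT6 and changes the set of open enhancers in macrophages. A vehicle control receives the solvent without the drug and sets the background against which a dissolved drug is read. Here DMSO against Untreated gives that background in resting cells and DMSO + IL-4 against IL-4 gives it in stimulated cells, and the pairs share no library.

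Reads in sites ranged from 12387332 in DMSO + IL-4 to 19889902 in Untreated. The limit of 3.2 stood for 39.9 reads in DMSO + IL-4 and 66.8 reads in Untreated. The 193 strongest sites, with a mean signal of at least 102.4, took 29.56% to 33.42% of the reads in the 4 paired libraries. Of the reads outside those 193 sites, 28.88% fell in the other members in Untreated and 33.03% in DMSO, against 30.79% in IL-4 and 32.2% in DMSO + IL-4. The authors' peak lists covered at least 97.62% of members in each of the 4 libraries. The median fold enrichment of those peaks over local background was 9.29 in Untreated, 10.6 in DMSO, 9.86 in IL-4 and 10.1 in DMSO + IL-4. Thus the share of reads in members and the peak enrichment were both higher in the DMSO library of each pair, and by more without IL-4. The part of this difference between libraries in the ratios below was not tested. The macrophage identity of the cells was not checked here, because the sites carry no gene names and the annotation at hand is of another build.

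On the deposited scale, signal at most members was higher with DMSO, and by more in resting than in IL-4-treated cells. Without IL-4 the median ratio of DMSO to Untreated was 1.26 and 83.3% of members lay above 1. With IL-4 the median ratio was 1.08 and 66.3% lay above 1. A site is called higher or lower below when the ratio, with 0.1 added to each signal, was at least 1.5-fold. Without IL-4, 5704 members (17.0%) were higher and 685 (2.05%) were lower with DMSO. Over all 122938 autosomal sites with a mean signal of at least 1.3, the same call gave 16.6% higher and 6.89% lower. With IL-4, 1993 members (5.95%) were higher and 1081 (3.23%) were lower, against 11.0% and 9.29% of that larger set.

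The balance of these calls moved with the scaling of the libraries. Higher sites made up 89.3% of the calls without IL-4. Scaling by total reads in sites gave 74.4%, and the median log2 ratio of this pair fell by 0.12. Scaling by reads outside sites with a mean signal of 65 or more gave 77.0%, and the median fell by 0.11. When the median ratio at each signal level was set to 1, higher sites were 37.4% of the calls. With IL-4 the deposited scale gave 64.8%, and setting the median at each signal level to 1 gave 44.1%. The other scalings gave 85.5% without IL-4 (DESeq2 size factors) and, with IL-4, 58.9% (total reads), 62.4% (DESeq2 size factors) and 56.1% (reads outside strong sites). Higher sites were thus the majority in both pairs under each scaling by 1 factor per library, and the minority once the medians were set to 1, a step that itself fixes the balance around the median.

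**Figure D1:**
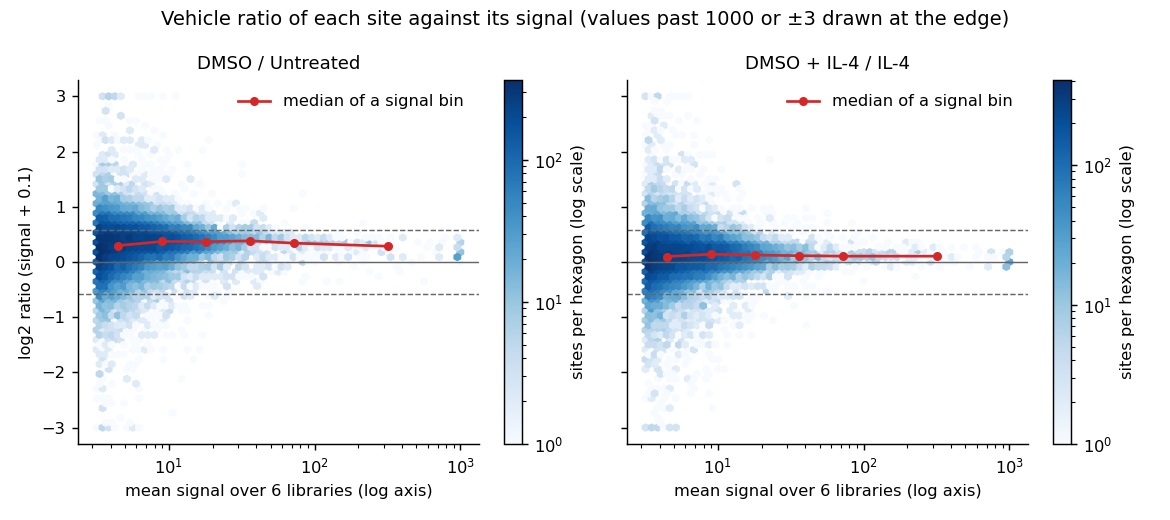
Log2 ratio of DMSO to Untreated (left) and of DMSO + IL-4 to IL-4 (right) for each of the 33476 members, against the mean signal on a log axis. Hexagons are shaded by the number of sites, red points are the medians of signal bins, and dashed lines mark 1.5-fold. The cloud narrows with signal in both panels and its centre lies further above 0 on the left.

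The shift differed between weak and strong sites. Sites were sorted into bins that each span a doubling of the mean signal. Below the limit, in 140014 autosomal sites with a mean of 0.8 to 1.6, the median log2 ratio was 0.04 without IL-4 and 0.01 with it. It was 0.125 and 0.04 in the 57383 sites from 1.6 to 3.2. Among members from 6.4 upwards, it lay between 0.28 and 0.38 without IL-4 and between 0.10 and 0.14 with it. The shift was therefore near 0 in the weakest sites and of similar size across the stronger ones.

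At like signal, the shift was smaller in wide sites. Among the members with a mean of 3.2 to 6.4, the 7840 sites under 600 bp had a median log2 ratio of 0.395 without IL-4 and 0.13 with it. The 1364 sites of 1500 bp or more, in which the same reads are spread over more sequence, had medians of -0.06 in both pairs. From 6.4 to 12.8, the medians without IL-4 were 0.41 in sites under 600 bp and 0.16 in sites of 1500 bp or more. The upward shift without IL-4 was thus larger in narrow sites in both signal ranges.

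Vehicle noise fell with signal in weak sites, and by less than counting error did in strong ones. Without IL-4 it stopped falling in the strongest bins, and with IL-4 it fell in every bin. Spread is given as the median absolute deviation of the log2 ratio, scaled to equal an SD for normally distributed values, and is set beside the spread that counting the same reads would give alone. Without IL-4 it was 0.585 in sites of 0.8 to 1.6, 0.352 in the 20825 members of 3.2 to 6.4, 0.211 in the 9196 members of 6.4 to 12.8 and 0.155 in the 2609 members of 12.8 to 25.6. It then stayed between 0.143 and 0.185 in the 498 members of 25.6 to 51.2, the 155 of 51.2 to 102.4 and the 193 above. Counting alone gave 0.249 in the first of the member bins and 0.030 in the last.

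With IL-4 the spread fell from 0.335 in the first member bin to 0.233, 0.177, 0.147, 0.122 and, in the strongest sites, 0.115. Counting alone gave 0.280 in the first and 0.037 in the last. The ratio of observed to counting spread was thus 1.20 in the weakest members and 3.08 in the strongest, against 1.42 and 6.11 without IL-4. In members of 6.4 to 25.6 both pairs lay between 1.15 and 1.23 times the counting spread. Taking the counting part away in quadrature left 0.250 without IL-4 and 0.185 with it in the weakest members, and 0.114 and 0.115 from 6.4 to 12.8. From there to the strongest bin, the remainder ranged from 0.090 to 0.182 without IL-4 and from 0.10 to 0.11 with it.

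**Figure D2:**
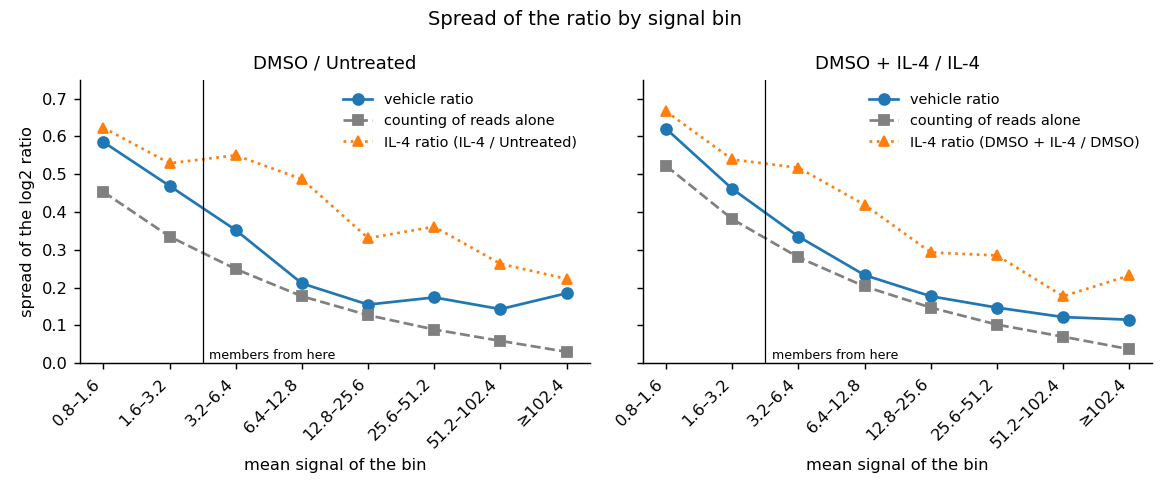
Spread of the log2 ratio (scaled median absolute deviation) by bin of mean signal, for the vehicle ratio (blue), for counting of reads alone (grey) and for the IL-4 ratio of the libraries named in the key (orange). The blue line stops falling in strong sites on the left and falls to 0.115 on the right, ending further above the grey line than it began among the members, and the orange line lies above the blue line in every bin.

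A 1.5-fold threshold therefore called very different shares of sites at different signal. Without IL-4, 21.9% of members of 3.2 to 6.4 passed it, 16.6% of those of 6.4 to 12.8, 9.28% of those of 12.8 to 25.6, 10.0% of those of 25.6 to 51.2, 2.58% of those of 51.2 to 102.4 and 0.518% of those above. Measured from the median of the bin instead of from 1, these shares were 12.4%, 5.32%, 3.33%, 6.43%, 2.58% and 1.55%. With IL-4 they fell from 11.9% in the weakest member bin to 5.51%, 2.87%, 2.61%, 1.94% and, above 102.4, to none of 193 sites. In sites of 0.8 to 1.6, where a library held a median of 20.5 or 15.5 reads per site, 32.5% passed without IL-4 and 35.4% with it.

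The ratio for IL-4 was wider than the vehicle ratio in the same bins, although each shares a library with a vehicle ratio. In members of 3.2 to 6.4, the spread of IL-4 to Untreated was 0.550 and that of DMSO + IL-4 to DMSO was 0.517. From 12.8 to 25.6 the values were 0.331 and 0.293, against vehicle spreads of 0.155 and 0.177. Over all members the spread of the ratio was 0.282 for DMSO to Untreated, 0.276 for DMSO + IL-4 to IL-4, 0.503 for IL-4 to Untreated and 0.463 for DMSO + IL-4 to DMSO. For IL-4 to Untreated, 7527 members (22.5%) were past 1.5-fold higher and 1828 (5.46%) lower, against 20.8% and 8.84% of the 122938 sites of the larger set. For DMSO + IL-4 to DMSO, 4655 (13.9%) were higher and 3419 (10.2%) lower, against 16.6% and 12.6%.

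Sites that differed the same way in both vehicle pairs were few. There were 454 members higher with DMSO in both pairs (1.36%) and 145 lower in both (0.433%), and 376 differed in opposite ways. Sites higher in both stayed the majority under each scaling by 1 factor per library, with 266 higher and 186 lower for total reads. Setting the median at each signal level to 1, which itself fixes the balance around the median, gave 123 higher and 315 lower. In the larger set down to a mean of 1.3, 2.24% were higher in both, 1.23% lower in both and 2.72% opposite. The shared higher sites were 7.96% of the sites higher without IL-4 and 22.8% of those higher with it, where 5.95% and 17.0% of all members were called higher in the other pair. The shared lower sites were 21.2% of the sites lower without IL-4 and 13.4% of those lower with it, where 3.23% and 2.05% of all members were called lower in the other pair.

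Opposite calls were also more frequent in called sites than in all members. Of the sites lower without IL-4, 17.7% were higher with IL-4, against 5.95% of all members. Of the sites lower with IL-4, 23.6% were higher without it, against 17.0%. Across the 33476 members, the vehicle log2 ratios of the pairs had a Pearson r of 0.07 and a Spearman rho of 0.10. By signal, r lay between 0.028 and 0.121 in the 5 member bins up to 102.4 and was 0.369 in the 193 strongest sites. The IL-4 ratios with and without DMSO, which also share no library, had 0.634 and 0.609 over all members. Sites of a library share its depth and preparation and are not independent.

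**Figure D3:**
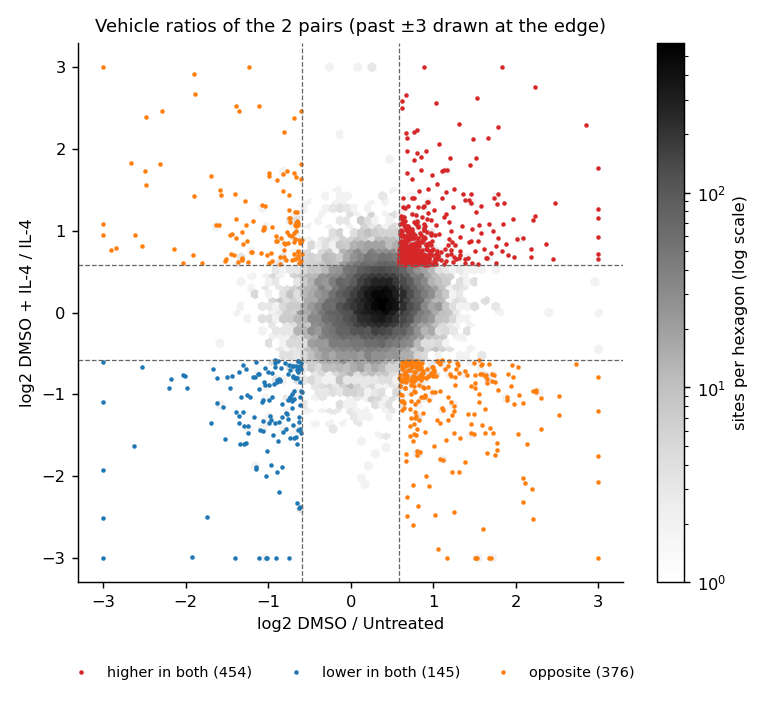
Log2 ratio of DMSO + IL-4 to IL-4 against that of DMSO to Untreated for the 33476 members, with dashed lines at 1.5-fold. The 454 sites higher in both (red), 145 lower in both (blue) and 376 in opposite ways (orange) surround a cloud with no visible slope, centred at 0.335 on the x axis and 0.115 on the y axis.

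Most shared sites were weak. The mean signal was under 6.4 in 79.7% of the sites higher in both and 82.8% of those lower in both, against 58.3% of the 24988 members past 1.5-fold in neither pair. Exact 95% intervals (Clopper-Pearson) for the ratio, which cover counting error only, lay on 1 side of equality in both pairs for 391 of the 454 higher sites and 136 of the 145 lower sites. They lay wholly past 1.5-fold in both pairs for 39 and 24. The opposite sites were also tallied, with 229 of 255 and 114 of 121 on 1 side of equality in each pair and 46 and 19 wholly past 1.5-fold. All these sites were chosen on the same counts, so the intervals describe them and test nothing. At 2-fold in both pairs, 49 higher and 38 lower sites were left, beside 94 opposite ones.

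The largest shared rise was at chr16:11670350-11670806 (mm9, 457 bp). It held 17 reads in Untreated and 111 in DMSO, and 18 in IL-4 and 75 in DMSO + IL-4. The ratio of DMSO to no DMSO was 7.95 without IL-4 (95% interval 4.75 to 14.1) and 5.25 with it (3.11 to 9.34). Both DMSO libraries were thus well above both others. The LatA + IL-4 library held 98 reads and the MCSF + IL-4 library 21, so these too differed, with signals of 6.69 and 1.59.

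The second rise, at chr6:117742673-117744476 (1804 bp), held 26 reads in Untreated, 107 in DMSO, 20 in IL-4 and 114 in DMSO + IL-4. Its ratios were 5.01 (3.24 to 8.01) and 7.19 (4.44 to 12.2). LatA + IL-4 held 45 reads and MCSF + IL-4 held 46, between the low and high vehicle libraries. The authors called a peak there in 2 of the 4 paired libraries.

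The third rise, at chr2:25483803-25484706, held 47 reads in Untreated, 142 in DMSO, 5 in IL-4 and 54 in DMSO + IL-4. The fourth, at chr16:36062127-36063047, held 50, 146, 10 and 43 reads in that order. The fifth, at chr17:78646954-78647962, held 14, 109, 10 and 30. On the scaled signal the libraries with and without DMSO did not overlap at any of the 3, but they came close at the fourth, with 2.40 in Untreated and 3.45 in DMSO + IL-4. The ratios of these 3 sites ranged from 3.55 to 9.48 without IL-4 and from 3.78 to 13.6 with it.

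The largest shared fall was complete. The site at chr5:23641949-23643004 (1056 bp) held 88 reads in Untreated and 82 in IL-4 and none in DMSO or DMSO + IL-4. Set against a floor of 3 reads per library, its signal was at least 24.1-fold lower without IL-4 and at least 21.7-fold lower with it. The exact 95% intervals, which are two-sided, began at 19.2-fold and 17.2-fold. LatA + IL-4 held 50 reads and MCSF + IL-4 held 107 at the same site. Both libraries labelled DMSO thus held no reads there, while the other 4 held at least 50.

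At the second fall, chr13:65647953-65649121, there were 114 reads in Untreated, 8 in DMSO, 94 in IL-4 and 12 in DMSO + IL-4. This is 11.7-fold lower without IL-4 (5.75 to 27.8) and 6.21-fold lower with it (3.39 to 12.4). LatA + IL-4 held 72 reads and MCSF + IL-4 held 49, and their signals of 4.92 and 3.72 were nearer those without DMSO (5.46 and 5.98) than those labelled DMSO (0.467 and 0.962).

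The third fall, at chr3:146334285-146335404, held 149, 31, 21 and 1 reads in Untreated, DMSO, IL-4 and DMSO + IL-4. The fourth, at chr16:15760413-15761251, held 41, 2, 100 and 20, and the fifth, at chr11:67491198-67492746, held 111, 26, 50 and 6. On the scaled signal, the libraries with and without DMSO overlapped at the third fall, where IL-4 had 1.34 and DMSO had 1.81, and did not overlap at the last 2 falls. At each of the 5 falls a peak was called in 2 of the 4 paired libraries.

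The shared rises with the highest signal were far smaller in size. At chr5:125866516-125868642 (2127 bp) the signal was 36.1 in Untreated, 86.3 in DMSO, 58.4 in IL-4 and 93.9 in DMSO + IL-4, ratios of 2.39 (2.19 to 2.61) and 1.61 (1.47 to 1.76). LatA + IL-4 reached 93.6 and MCSF + IL-4 141. At chr1:33623883-33627997 (4115 bp) the ratios were 1.54 and 1.59, and at chr8:40108011-40108895 they were 1.76 and 1.70. With the median at each signal level set to 1, none of these 3 stayed past 1.5-fold in both pairs. The second, whose log2 ratio without IL-4 was 0.62, also lost its call there under each of the other 3 scalings.

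The shared falls with the highest signal were at chr3:145763766-145765030, chr5:11169894-11170523 and chr8:4531521-4532986. The first had a signal of 17.9 in Untreated, 5.77 in DMSO, 16.7 in IL-4 and 9.54 in DMSO + IL-4, which is 3.10-fold lower (2.48 to 3.91) and 1.75-fold lower (1.40 to 2.19). At the second site the fall was 1.92-fold without IL-4 and 1.85-fold with it, and at the third 3.14-fold and 2.16-fold. All 3 also differed by over 1.5-fold in the separate pair, with log2 ratios of LatA + IL-4 to MCSF + IL-4 of -1.06, 3.10 and 0.595. All 6 of these stronger sites had a peak in each of the 4 paired libraries.

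**Figure D4:**
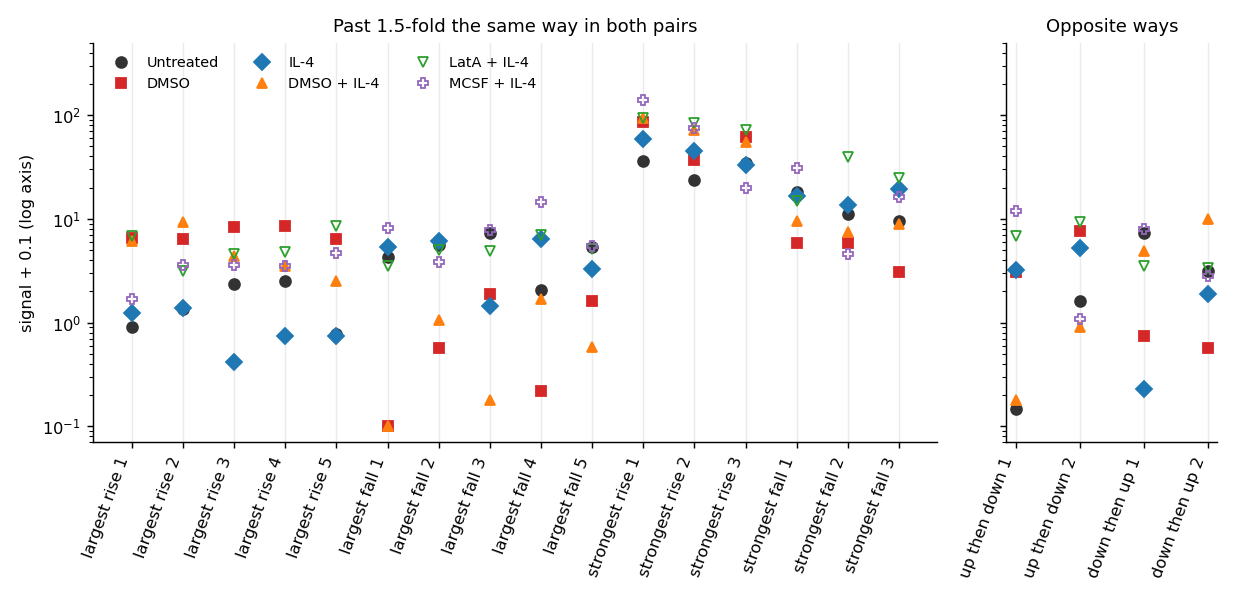
Signal plus 0.1, on a log axis, in each of the 6 libraries for the sites described in the text, numbered in the order given there. Filled symbols are the 4 paired libraries and open symbols are LatA + IL-4 and MCSF + IL-4. At the first fall both DMSO libraries lie at the bottom of the axis, and at the sites on the right the DMSO libraries swap places between the pairs.

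Some sites went opposite ways to a comparable extent. Of the 376, 255 were higher with DMSO without IL-4 and lower with IL-4, and 121 were the reverse. At chr16:31026208-31027461 there were 1 read in Untreated, 51 in DMSO, 49 in IL-4 and 1 in DMSO + IL-4. The ratio was 62.1 (10.7 to 2500) without IL-4, and with IL-4 it was 0.0257 (0.000639 to 0.15). LatA + IL-4 held 99 reads and MCSF + IL-4 held 155. Reads were thus nearly absent from 2 of the 6 libraries, 1 with DMSO and 1 without.

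At chr5:72906153-72907463 the order was the reverse, with 151 reads in Untreated, 11 in DMSO, 2 in IL-4 and 60 in DMSO + IL-4. The second site of each kind, at chr3:51102303-51103171 and chr18:3355286-3356075, held 32, 128, 80 and 10 reads and 64, 8, 28 and 122 reads in the same order. At all 4 sites, the low library of each pair held at most 32 reads.

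Shared lower sites and opposite sites were wider and less dense than the rest. The median width was 1135 bp in sites lower in both pairs, 877 and 1088 bp in the opposite sites, 706 bp in sites higher in both and 766 bp in sites past 1.5-fold in neither. The median signal per kb was 3.75 in the lower sites, 6.82 in the higher sites and 8.31 in sites past 1.5-fold in neither. Among members of 3.2 to 6.4, 0.217% of sites under 600 bp were lower in both, against 1.61% of those of 1500 bp or more, while the shares higher in both were 2.04% and 1.54%. From 6.4 to 12.8 the share lower in both rose from 0.102% to 1.83% between the same width classes and the share higher in both from 0.766% to 2.85%. Wide sites thus held more shared falls in both signal ranges, and more shared rises in the stronger range.

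Within 10 kb of another of the same class lay 2 of the 454 sites higher in both and 2 of the 145 lower in both. So did 6 of the 255 higher then lower and 0 of the 121 lower then higher. The share was 39.7% in sites past 1.5-fold in neither pair and 48.0% in all members. Sites of a larger class lie closer together, so these shares do not compare like with like. The shared higher sites were found on all 19 autosomes, at 0.958% of members on chromosome 3 to 2.01% on chromosome 16. The shared lower sites ranged from 0.0457% of members on chromosome 7, where there was 1, to 0.808% on chromosome 18, where there were 9.

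The shared and the opposite sites also had a wider spread in the separate pair, which shares no library with the DMSO pairs. That pair did enter the mean signal that chose the members and set their bins. Its median signals in members were 7.31 (LatA + IL-4) and 6.75 (MCSF + IL-4), against 4.12 to 4.97 in the paired libraries. The part of this choice in the wider spread was not tested. For LatA + IL-4 against MCSF + IL-4, in members of 3.2 to 6.4, the spread of the log2 ratio was 0.429 in sites past 1.5-fold in neither vehicle pair. It was 0.627 in the 362 sites higher with DMSO in both, 1.03 in the 120 lower in both, and 0.917 and 1.02 in the opposite sites. Counting alone gave 0.236 to 0.267 in each. The share past 1.5-fold in this separate pair was 21.4% in sites past it in neither vehicle pair, 37.8% in the shared higher sites and 56.7% in the shared lower sites.

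The calls of that pair went both ways in these sites. Among all sites higher with DMSO in both pairs, 91 (20.0%) were higher with LatA and 76 (16.7%) were higher with MCSF. Among those lower in both, the numbers were 38 (26.2%) and 45 (31.0%). The shares were 12.6% and 7.57% of all members, and 16.4% and 13.7% of the larger set. The median log2 ratio of that pair was 0.16 in the shared higher sites, -0.03 in the shared lower sites and 0.11 in all members.

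Read counts ended in 0 more often in the sites lower in both pairs than in sites past 1.5-fold in neither, and less so in the sites higher in both. The study's methods had the aligner report up to 10 alignments per read, so a repeated sequence can add up to 10 alignments at a time. Of read counts of at least 10 and under 1000 in the 4 paired libraries, 10.1% ended in 0 in sites past 1.5-fold in neither pair (95% interval 9.90 to 10.3). In sites lower in both, 15.0% did (12.1 to 18.2), in the opposite sites 14.2% of each kind, and in sites higher in both 12.6% (11.1 to 14.2). In the LatA + IL-4 and MCSF + IL-4 libraries the values were 19.0% (14.7 to 24.0) in the sites lower in both, 11.4% (9.42 to 13.7) in the sites higher in both, and 11.0% (8.45 to 14.1) and 16.2% (11.8 to 21.5) in the opposite sites, against 10.1% (9.80 to 10.3) in sites past 1.5-fold in neither pair. These libraries entered the 1.5-fold calls of neither vehicle pair, but count toward the mean signal that chose the members. The intervals for last digits treat the counts of a site in several libraries as independent, so they may be too narrow.

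In 65 members (0.194%) all 6 counts ended in 9, 0 or 1, against 0.0729% if each count did so independently at 3 in 10. Of these 65 members, 38.5% differed by 1.5-fold without IL-4 and 38.5% with it. Among them, 6 (9.23%) were lower in both, 5 (7.69%) higher in both and 4 (6.15%) opposite. Among the 3754 members in which no count ended so, 18.5% and 8.84% differed, 0.426% were lower in both, 1.36% higher in both and 1.07% opposite. The median width was 1131 bp in the 65 members and 738 bp in the 3754. The part of width in this contrast and that of multiple alignments in the shared differences were not tested.

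**Figure D5:**
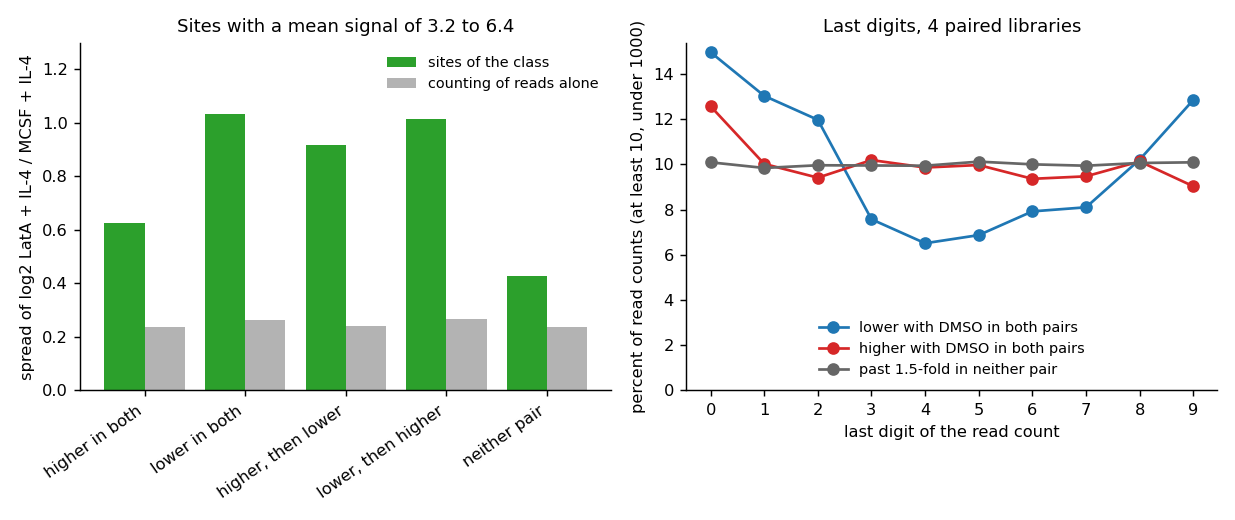
Left, spread of the log2 ratio of LatA + IL-4 to MCSF + IL-4 (green) beside counting alone (grey), in members with a mean signal of 3.2 to 6.4, by what the vehicle pairs did. Right, percent of read counts by last digit in the 4 paired libraries. The green bar is 0.429 for sites past 1.5-fold in neither pair and 1.03 for sites lower in both, and the grey line on the right, for sites past 1.5-fold in neither pair, is level across the digits.

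Of the members chosen for being past 1.5-fold in neither pair, the 3 with the highest signal are given as a description. At chr2:98506351-98507543, the site with the highest signal, the signal was 60600 in Untreated, 65800 in DMSO, 55200 in IL-4 and 53600 in DMSO + IL-4, ratios of 1.08 and 0.971. This site held 1264975 reads in Untreated over 1193 bp. The part of multiple alignments in such counts was not tested. The next sites, at chr9:2999995-3001601 and chr9:3023402-3024723, had ratios of 1.08 and 1.09 without IL-4 and 0.940 and 0.957 with it. On the deposited scale the DMSO library was thus above Untreated and DMSO + IL-4 below IL-4 at all 3. The difference without IL-4 turned to log2 ratios of -0.001 to -0.012 when scaled by total reads, and of -0.184 to -0.196 with the median at each signal level set to 1. LatA + IL-4 and MCSF + IL-4 were lower than the other 4 libraries at each of them, with signals of 35300 and 40400 at the first.

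A joint fit of the 4 libraries asked for a vehicle difference common to both pairs, using edgeR's quasi-likelihood test with a term for DMSO and a term for IL-4. It rests on 1 residual degree of freedom, so its error is borrowed from all sites. At a Benjamini-Hochberg adjusted p under 0.05 it called 321 members higher and 165 lower with DMSO, or 486 of 33476 (1.45%), and 6041 members (18.0%) for IL-4. Over the 122938 sites of the larger set, 0.258% were called for DMSO and 5.71% for IL-4. Of the 317 sites called there for DMSO, 79 were members. Of the shared sites, 194 of the 454 higher and 110 of the 145 lower were among the 486. The shared sites were chosen on the same reads that the fit used, so this overlap tests nothing. With the fit over the larger set, 53 and 26 of the shared sites were called. Of the opposite sites, 1 of the 255 higher then lower and 3 of the 121 lower then higher were among the 486. A call of the fit thus does not require both pairs to pass 1.5-fold the same way, and not all of the 486 did.

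The number of vehicle calls of the fit depended on the setting. With robust shrinkage edgeR called 430, of which 284 were higher and 146 lower with DMSO. With TMM factors from the 4 libraries alone it called 256, of which 141 were higher and 115 lower. The balance of higher and lower calls in the fit thus also moved with the scaling. DESeq2 with the same terms called 3 members, and edgeR with the median at each signal level set to 1 called 0, with 2175 at an unadjusted p under 0.05. The IL-4 calls under these last settings numbered 673 and 4050.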

How the data were processed

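ATAC-seq was analysed in 6 libraries, 1 per group, with groups taken from the labels. Per the study's methods, reads were trimmed with Cutadapt, aligned to mm9 with Bowtie2 (up to 10 alignments per read), deduplicated with Picard and cleared of blacklisted and mitochondrial reads. Peaks were called per library with macs2 and reads per site counted with featureCounts. Versions and the way sites were merged are not given in the sources used here. The deposited signal is reads per site that the authors scaled to CPM with TMM factors in edgeR. Of the values, 100.0% gave back whole reads as multiples of the signal of 1 read, within 0.001 reads. The deposited peak lists give a fold enrichment (a ratio within 1 library), used to describe peaks, and a −log10 q-value, which entered no result. All 6 columns of signal were used.

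Log2 ratios were taken after adding 0.1 to each signal, a step chosen here. They were called at 1.5-fold, the fold used in the study's methods. Members, rules and comparisons were chosen with earlier results of these data known. Exact 95% intervals of ratios cover counting error only: no molecular identifiers were read, so reads may repeat a molecule. Those of last digits treat all counts as independent, also counts of the same site. With 1 library per group there was no replicate check.

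The sites described singly were the 5 largest shared rises and falls by the smaller of the 2 ratios, the 3 strongest in each direction, 2 opposite sites of each order and the 3 strongest past 1.5-fold in neither pair, none within 10 kb of another of its kind. Fits used edgeR 4.0.16 and DESeq2 1.42.0 in R 4.3.3. Of these fits, only that with edgeR was run on simulated data, and the outcome is not reported here. Other steps used numpy 2.4.6, pandas 2.3.3 and scipy 1.17.1. Positions are in mm9, counted from 1. The reference at hand was GRCm38, so gene names, macrophage markers, gene lists and sequence were not analysed here.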

Additional observations from a re-analysis of the deposited data

Results flagged for a closer look

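The vehicle difference went opposite ways in the pair without and the pair with IL-4 at 255 members (higher, then lower) and 121 members (lower, then higher). The log2 ratios without and with IL-4 were 4.378 and -4.158 at chr16:31026208-31027461, 2.212 and -2.524 at chr3:51102303-51103171, -3.306 and 4.434 at chr5:72906153-72907463, and -2.483 and 2.394 at chr18:3355286-3356075. With 1 library per group these differences between the pairs were not tested.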

How the results depend on the processing

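No paired analysis was possible because each group had 1 library and so no replicate numbers to pair, beyond the joint fit, which compares DMSO within each IL-4 level, and no replicate could be left out. The values below are given in the order higher without IL-4, lower without IL-4, higher with IL-4, lower with IL-4, higher in both, lower in both and opposite. With a 2-fold threshold they were 710, 229, 399, 373, 49, 38 and 94 members. With a minimum mean signal of 1.3 they were 20353, 8469, 13551, 11424, 2752, 1507 and 3343 sites, with a minimum of 10 they were 559, 34, 107, 54, 24, 6 and 18, and with no minimum they were 113403, 103236, 114868, 115324, 27022, 27843 and 51869. The 2-fold counts are of the same members, the minimum of 10 keeps part of them, and the 2 lower limits add sites. With 2-fold, opposite sites outnumbered those that went the same way (94 against 87).

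Scaling by total reads gave 2991 members higher and 1029 lower without IL-4 and 266 higher in both, and scaling by reads outside sites of 65 or more gave 3250 and, in both pairs, 265. Setting the median at each signal level to 1 gave 1190 higher and 1989 lower without IL-4, 1230 higher with IL-4, 123 higher in both and 315 lower in both. The spread was then 0.278 without IL-4 and 0.273 with it. Adding 1 to each signal gave 2720 higher without IL-4, 1054 higher and 697 lower with IL-4, 171 higher in both, 93 lower in both and 219 opposite, with spreads of 0.237 and 0.236. DESeq2 size factors kept all 7 counts within 1.5-fold of those reported, as did asking for a peak in each library of a pair, where the spreads were 0.275 and 0.272. Measured between the 16th and 84th percentiles, the spreads were 0.304 and 0.287.

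2 restrictions were chosen after seeing the data. Members under 1000 bp alone gave 288 lower without IL-4, 530 lower with IL-4, 57 lower in both and 206 opposite. Members with fewer than 4 of 6 counts ending in 0 or 1 kept every count within 1.5-fold, with 439 higher and 127 lower in both. Of 230 log2 ratios of the 23 sites described singly, under 5 other settings, 223 kept their side of 1.5-fold, 7 fell below it, and 6 changed sign, all at the 3 strong sites past 1.5-fold in neither pair.

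The joint fit gave 3 vehicle calls with DESeq2, 256 with TMM factors from the 4 libraries alone, 317 with a minimum mean signal of 1.3, 3298 with no minimum and, as settings chosen after seeing the data, 430 with robust shrinkage and 0 with the median at each signal level set to 1, where 2175 had an unadjusted p under 0.05. Why the calls differed was not tested. At the limit of 3.2, 39.9 to 66.8 reads stood behind a value. In the members of 3.2 to 6.4, a library held a median of 68 reads per site without IL-4 and 54 with it. Counting alone gave a spread of 0.249 and 0.280 there.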
